A study of Mus musculus with 6 samples.

Results

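The genes described here are the heat shock proteins and DNAJ chaperones of mouse lung endothelial cells, the cells that line the blood vessels of the lung. They were taken from the processed RNA table as the protein-coding genes whose symbol begins with Hspa, Hspb, Hsp90, Dnaja, Dnajb or Dnajc followed by a number, or is Hspd1, Hspe1 or Hsph1. The table held 64 such genes among 14266 protein-coding genes and 18956 genes in all. The rule used symbols only and no measured value. By the place where their proteins work, 36 were put under cytosol and nucleus, 13 under endoplasmic reticulum (ER), 9 under mitochondrion and 6 under other places or none.

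Bulk RNA sequencing had been done on 6 libraries of isolated lung endothelial cells. Their labels name 3 of them WT with no Cre (WT 1 to 3, Cre-negative), and the other 3 CSE-KO with Cre present (CSE-KO 1 to 3, Cre-positive). CSE is cystathionine gamma-lyase, an enzyme that makes cysteine from cystathionine and is encoded by Cth. Cre is a recombinase used to delete a marked gene, so the groups differ in Cre status as well as in the CSE genotype, and these cannot be told apart. The driver of Cre, the deleted exons, the age and strain of the mice, the culture of the cells and whether replicates came from separate animals are not given in the labels. P-values therefore measure no more than how these libraries scatter, and that scatter may be technical.

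The values are whole numbers read as normalized counts, that is, read counts divided by a size factor for each library. They summed to between 6028772 and 6052275 in WT and between 5698922 and 5765008 in CSE-KO. The targeted gene Cth read 29, 27 and 26 in WT and 49, 43 and 63 in CSE-KO, so its level was raised in the CSE-KO-labelled libraries (log2 fold change 0.89, SE 0.18, adjusted p = 0.00079 by limma). This goes against the label, and reads from exons outside the deleted part would not test it. Every direction below is therefore that of the libraries labelled CSE-KO over those labelled WT. The endothelial markers fitted the labelled cell type: all 12 of the list were detected in every library, with sums of 16906 to 17139 in WT and 10914 to 11631 in CSE-KO.

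If the values are taken as raw counts, pairs of WT libraries were no further apart than counting noise. Their chi-square per gene was 0.719 to 0.765 over all genes and 0.935 to 0.976 over sparse genes. Raw depth is unknown, so the true level of that noise is not known. CSE-KO 2 and CSE-KO 3 were nearly as close to each other, at 0.875 and 1.078. CSE-KO 1 stood apart from both, at 1.572 and 1.842 over all genes. Because libraries this close may be repeats of 1 sample, each call of a chaperone gene is also given with the WT libraries counted as 1 sample wherever that ends it.

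Chaperones are proteins that bind unfolded or partly folded proteins and help them reach or keep their shape. HSP70 proteins clamp and release a client in a cycle driven by ATP. J-domain (DNAJ) proteins bring clients to HSP70 and start that cycle, and nucleotide exchange factors such as the HSP110 proteins end it. HSP90 proteins act on near-native clients such as kinases and receptors, chaperonins fold proteins inside a closed barrel, and small heat shock proteins hold unfolded proteins without using ATP. Each compartment has its own set and its own control: heat shock factor 1 (HSF1) raises many cytosolic genes by binding heat shock elements, and the unfolded protein response of the ER raises ER genes through ER stress elements. Endothelial cells make these proteins constantly and raise them with heat and oxidants.

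Promoter sequences of 52 of the 64 genes were found by symbol in RefSeq (build GRCm38.p6), as 250 bases before to 50 bases after each annotated start. A heat shock element, searched on both strands as 3 alternating GAA and TTC units with any 2 bases between neighbouring units, lay in 4 of the 52 (Dnajb6, Hspd1, Hspe1 and Hsph1) and in 0.66% of the 27025 genes with a promoter in RefSeq's table. A looser pair of units (GAANNTTC or TTCNNGAA, contained in the full element, and searched only after values had been seen) lay in 14 of 52, against 16.97% of all genes. The 14 included Hspa1a, Hspa1b, Hspb1, Hspb8, Dnaja1, Dnaja4 and Dnajb4, which were higher in CSE-KO, but also Hspb6 and Dnajc10, which were lower. The ER stress element, CCAAT and CCACG separated by any 9 bases, lay in 3 (Hspa5, Hsp90b1 and Dnajc3), against 0.14% of all genes. The C/EBP-ATF element TGATGNAAT was found in 0 of 52 and in 1.08% of all genes. A match is a description of letters and does not show that a factor binds.

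The heat shock elements are shown because the 4 genes that carry them span the cytosol and the mitochondrion, and all 4 were higher in CSE-KO. Capitals mark the element. Hspe1 and Hspd1 lie head to head and share a single stretch, chr1:55088054-55088081, read here on opposite strands. The Hsph1 stretch, chr5:149636283-149636305, lies on the minus strand just inside the transcript, and the Dnajb6 stretch is chr5:29735847-29735869 on the plus strand.
Hspe1: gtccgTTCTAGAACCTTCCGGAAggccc
Hspd1: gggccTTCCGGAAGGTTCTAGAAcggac
Hsph1: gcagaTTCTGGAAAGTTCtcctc
Dnajb6: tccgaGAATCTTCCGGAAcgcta

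The ER stress elements of Hspa5 (chr2:34772020-34772048, plus strand) and Dnajc3 (chr14:118937822-118937850, plus strand) are shown because the first gene rose and no change was called for the second. Capitals mark the whole element, and the 9 bases between its ends differ. The remaining carrier, Hsp90b1, was also called higher (log2 0.14). It is not printed because its elements, beginning at −212 and −107 from the start, span a longer stretch.
Hspa5: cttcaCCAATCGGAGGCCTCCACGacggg
Dnajc3: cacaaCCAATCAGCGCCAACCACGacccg

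The heat-inducible HSP70 genes Hspa1a and Hspa1b are near-identical copies on chromosome 17, and their upstream sequences are shown because their values rose by unequal amounts. The 250 bases before each start (Hspa1a chr17:34972157-34972406, Hspa1b chr17:34959239-34959488, both on the minus strand) were 98.8% identical, with 3 differing bases, given in capitals.
Hspa1a: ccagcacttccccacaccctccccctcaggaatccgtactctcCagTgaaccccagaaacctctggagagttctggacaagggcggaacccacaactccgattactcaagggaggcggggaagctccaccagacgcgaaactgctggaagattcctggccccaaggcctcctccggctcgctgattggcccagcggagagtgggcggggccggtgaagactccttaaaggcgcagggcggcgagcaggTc
Hspa1b: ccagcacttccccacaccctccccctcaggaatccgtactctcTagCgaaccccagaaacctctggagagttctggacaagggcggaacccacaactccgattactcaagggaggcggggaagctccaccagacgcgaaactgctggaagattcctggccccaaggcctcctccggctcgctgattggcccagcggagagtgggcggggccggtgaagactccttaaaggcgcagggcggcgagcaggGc

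Of the 64 genes, 62 passed the filter for testing (10 or more in 3 or more libraries). Across them 38 were higher and 15 lower in CSE-KO at an adjusted p under 0.05 (limma on log2 values, Benjamini-Hochberg over 13750 genes), and 9 were not called. Calls were common in this contrast: 77.4% of all tested genes changed, 38.3% upward and 39.0% downward, so the share of chaperone genes that changed in either direction, 53 of 62, says little by itself. The direction was uneven. Changes of at least 1.5-fold were upward in 18 and downward in 5 of the 62, where 17.4% of all tested genes rose and 20.9% fell by that much. The median log2 fold change was 0.25 over the chaperone genes and 0.001 over all tested genes. In 53 of the 62 the values of the groups did not overlap, as in 80.4% of all tested genes. In bulk RNA, fewer cells of a type and less RNA per cell cannot be told apart, and this holds for each difference below. The genes left out of the test were Hspb7, which read 3, 2 and 4 in WT and 4, 6 and 2 in CSE-KO, and Dnajc6, at 0 in each WT library and 7, 7 and 8 in CSE-KO. Hspa1l and Hspb2 passed only through their CSE-KO values, so the filter fixed their direction. Without them 36 of 60 genes were higher and 15 lower, 16 and 5 of them by at least 1.5-fold, with a median of 0.24. Without the genes that passed in the same way through either group, 36.9% of all tested genes were higher and 39.4% lower, 14.7% and 20.1% by at least 1.5-fold.

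By compartment, counts are set beside the 38.3% of all tested genes that were higher and the 39.0% that were lower. Under cytosol and nucleus, 26 of 35 tested genes were higher and 6 lower, with a median of 0.45, or 24 and 6 of 33 and a median of 0.34 without Hspa1l and Hspb2. In the ER, 5 of 13 (38.5%) were higher and 6 (46.2%) lower, close to the shares over all genes, with a median of −0.07. In the mitochondrion, 5 of 9 were higher and 1 lower, with a median of 0.27. Of the 5 tested genes of other places, 2 were higher and 2 lower, with a median of −0.14. Read library by library against the WT mean, the cytosolic median was 0.39, 0.45 and 0.50 in CSE-KO 1 to 3. The ER median was −0.12, −0.05 and 0.02 in the same libraries, so its sign was not the same in all of them. The mitochondrial median was 0.09, 0.26 and 0.13, and in CSE-KO 1 it lay closer to 0 than the ER median. Genes are not replicates of a condition, and the difference between compartments was not tested. With totals set equal or upper-quartile scaling, which shift the median of all genes to 0.08 and 0.10, the ER median was 0.005 and 0.02. Without CSE-KO 2 the mitochondrial median was 0.11.

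**Figure D1:**
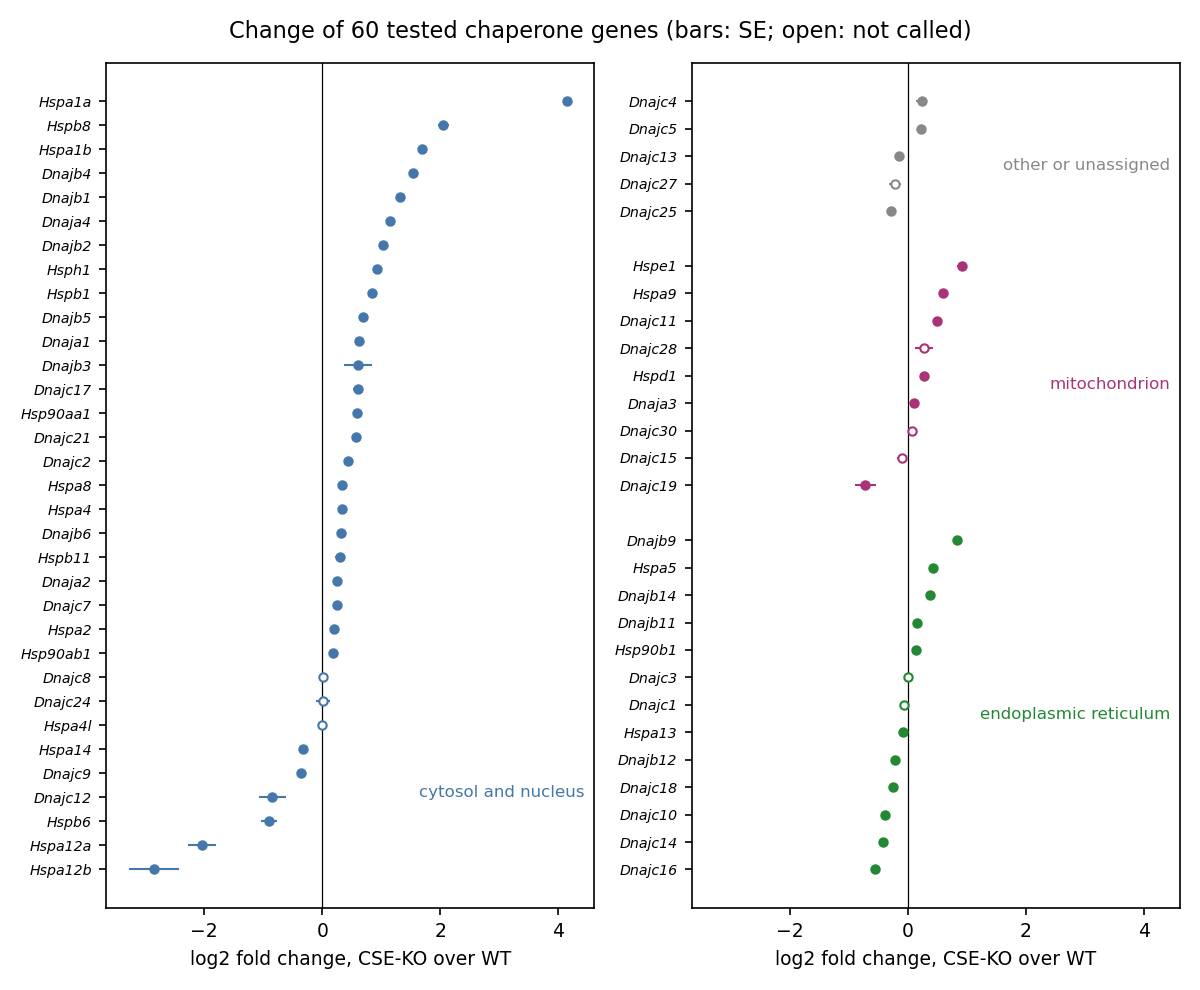
Log2 fold change (CSE-KO over WT, horizontal axis) of 60 tested chaperone genes, with SE as bars (Hspa1l and Hspb2, near 0 in WT, are not drawn), grouped by compartment and ordered by size; filled points passed the test and open points did not. The cytosolic genes reach from −2.86 (Hspa12b) to 4.16 (Hspa1a), whereas the ER genes lie between −0.55 and 0.84.

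**Figure D2:**
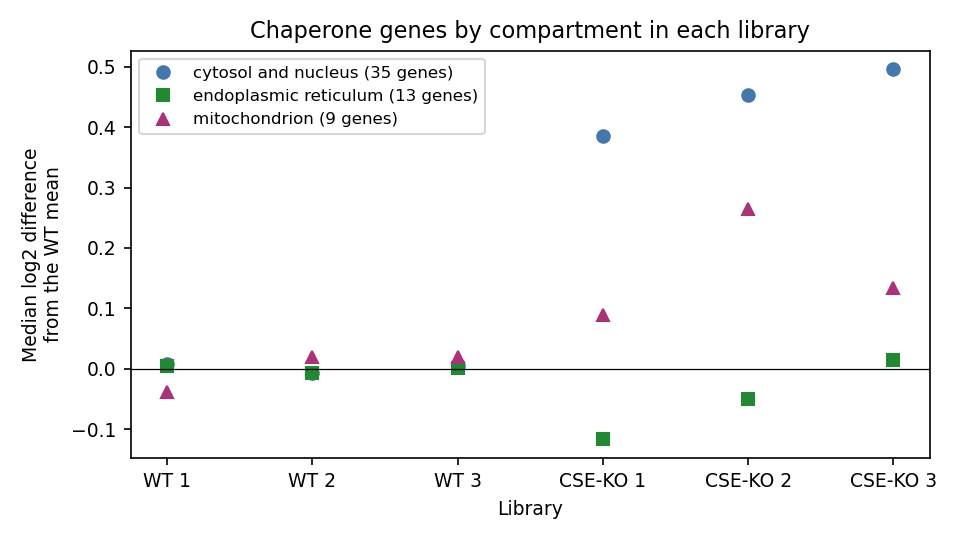
Median log2 difference from the WT mean (vertical axis) over the tested genes of each compartment (Hspa1l and Hspb2 included), in each of the 6 libraries. The cytosolic median lies between 0.39 and 0.50 in the CSE-KO libraries, above the mitochondrial and the ER medians in each of them.

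Leaving aside genes near 0 in WT, the largest rise was in inducible HSP70. Hspa1a (chromosome 17, 34969190 to 34972156, minus strand, mm10) read 50, 44 and 54 in WT and 861, 886 and 910 in CSE-KO. Every CSE-KO library was far above every WT library, and the fold change was 17.8 (log2 4.16, SE 0.08, adjusted p = 3.6e-11). Its copy Hspa1b (34956436 to 34959238) read 291, 293 and 306 in WT and 934, 949 and 983 in CSE-KO, a 3.22-fold rise (log2 1.69, SE 0.04, adjusted p = 7.9e-11). The pair thus stood far apart in WT and close together in CSE-KO. Per kilobase of exon, Hspa1a went from 16.6 to 299 and Hspa1b from 106 to 341. The third gene of the cluster, Hspa1l (34972703 to 34979285, plus strand), whose product is best known from the testis, read 1, 2 and 0 in WT and 29, 42 and 33 in CSE-KO. No fold or p is given for it because WT was near 0 and it entered the test only through its CSE-KO values.

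These 3 neighbours are hard to count. Only 45.8% of the 75-base stretches of Hspa1a and 44.2% of those of Hspa1b occur at no other locus, and the pair shared 1524 stretches. How reads with several matches were handled, and whether strand was used in counting, are not stated in the labels or notes. On the opposite strand, Gm20481 covers 19.0% of the exonic bases of Hspa1a and read 0, 2 and 0 in WT and 134, 142 and 139 in CSE-KO. Gm10501 covers 71.9% of those of Hspa1l from the opposite strand and read 19, 20 and 16 in WT and 26, 27 and 25 in CSE-KO. The split of reads within the cluster is therefore uncertain. The values of Hspa1a and Hspa1b both rose, but as they may share reads, this does not show that each gene rose.

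In CSE-KO, Hspa1a and Hspa1b were high relative to their distinct stretches. Per kilobase of exon, Hspa1b and Hspa1a were at 341 and 299 there, below Hsp90ab1, Hspa5 and Hspa9 at 710, 520 and 505. No gene in the table exceeded 0.843 per exonic base. That is another measure than the shares of distinct stretches given next. In CSE-KO the mean value of Hspa1b equalled 79.3% of its distinct 75-base stretches and that of Hspa1a 66.9%, against 24.6% and 3.7% in WT. Correcting for starts used more than once, an alternative added after seeing the data, gave a fold of 28.9 for Hspa1a and 5.57 for Hspa1b. It takes the values as raw counts and assumes that reads with several matches were not counted, and neither is known. If such reads were counted, these percentages and corrected folds are too high. Whether duplicate starts were removed was not tested.

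**Figure D3:**
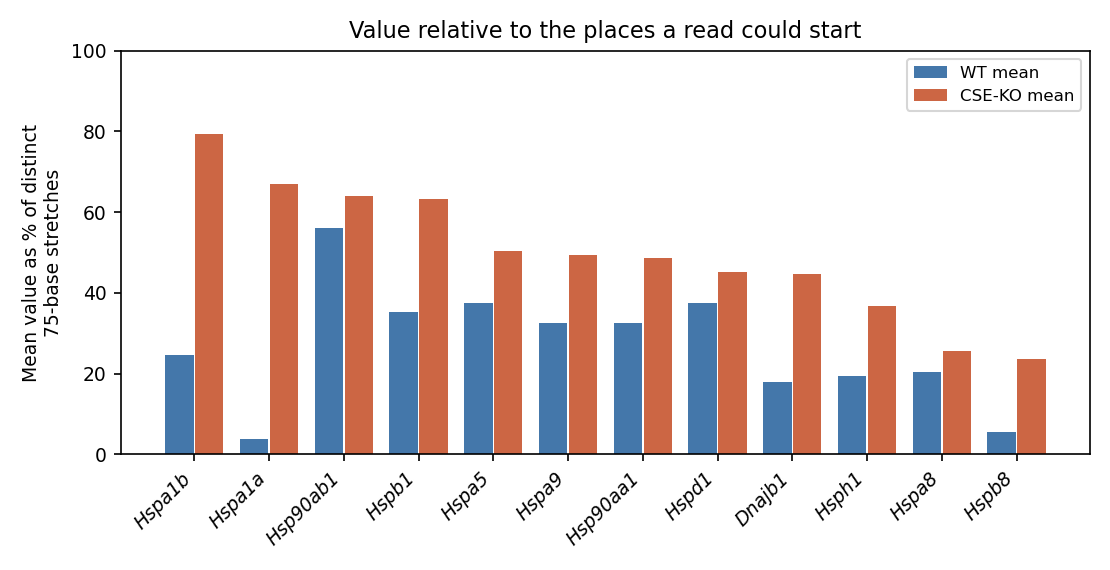
Mean value of 12 chaperone genes in WT and CSE-KO as a percentage of the distinct 75-base stretches of the gene (vertical axis, from 0). In CSE-KO the bars of Hspb1, Hsp90ab1, Hspa1a and Hspa1b lie between 63.3% and 79.3%, the highest of the 12 genes.

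The other cytosolic HSP70 genes moved less or fell. Hspa8, the constitutive HSC70 of all cells, read 698, 661 and 673 in WT and 839, 866 and 858 in CSE-KO. The groups did not overlap, and the rise was small (log2 0.34, SE 0.03, adjusted p = 2.1e-06). Hspa2, an HSP70 abundant in the testis, read 150 to 154 in WT and 171 to 177 in CSE-KO (log2 0.21, adjusted p = 0.014), and this call was lost with WT counted as 1 sample (adjusted p = 0.12). Hspa14, an HSP70 that works at the ribosome, fell from 374, 392 and 340 to 298, 313 and 275 (log2 −0.32, SE 0.07, adjusted p = 0.00089).

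The deepest falls of the whole group were in the distant HSP70 relatives Hspa12a and Hspa12b. Hspa12b, known for its expression in endothelium, read 925, 937 and 963 in WT and 237, 98 and 93 in CSE-KO. All CSE-KO libraries were far below WT, and CSE-KO 1 stood well above the other CSE-KO libraries. The fall was 7.26-fold (log2 −2.86, SE 0.42, adjusted p = 0.0032). With WT counted as 1 sample the log2 fold change was −2.86 with an adjusted p of 0.068, and with CSE-KO 2 and 3 counted as 1 sample as well it was −2.64 with an adjusted p of 0.23. Hspa12a read 231, 266 and 224 in WT and 80, 41 and 60 in CSE-KO, a 4.09-fold fall (log2 −2.03, SE 0.24, adjusted p = 0.0002) that stayed called in both of those counts (adjusted p = 0.0062 and 0.017). The endothelial marker list moved in the same direction, with 11 of 12 genes lower and none higher, beside 39.0% and 38.3% of all tested genes. Its median log2 fold change was −0.90. Its part in the fall of Hspa12b was not tested.

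Of the HSP110 genes, exchange factors for HSP70, Hsph1 rose most. It read 1456, 1455 and 1487 in WT and 2646, 2800 and 2926 in CSE-KO, with each CSE-KO library well above WT (1.90-fold, log2 0.93, SE 0.03, adjusted p = 3.6e-09). Hspa4 rose from 1676, 1650 and 1669 to 2032, 2089 and 2168 (log2 0.33, SE 0.03, adjusted p = 4.2e-07). Hspa4l read 2659, 2636 and 2639 in WT and 2541, 2569 and 2796 in CSE-KO, so the groups overlapped and no change was called (log2 −0.006, SE 0.03, adjusted p = 0.87). Its sign followed single libraries and the scaling: without CSE-KO 1 or CSE-KO 2 it was 0.02 and 0.01, without CSE-KO 3 it was −0.05 and called (adjusted p = 0.047), and with totals set equal or upper-quartile scaling it was 0.07 and 0.09 (adjusted p = 0.076 and 0.034).

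Both cytosolic HSP90 genes rose. The inducible Hsp90aa1 read 729, 760 and 734 in WT and 1090, 1100 and 1141 in CSE-KO (log2 0.58, SE 0.03, adjusted p = 1.9e-08). The constitutive Hsp90ab1 read 1917, 1847 and 1852 in WT and 2112, 2123 and 2157 in CSE-KO (1.14-fold, log2 0.19, SE 0.02, adjusted p = 1.4e-05). Its value per kilobase of exon was the highest of all the chaperone genes, at 624 in WT and 710 in CSE-KO. Relative to distinct stretches, Hspa1b and Hspa1a were above it in CSE-KO, at 79.3% and 66.9% against 63.9%. For Hsp90aa1, only 57.2% of its stretches were distinct, and its processed copy Gm12346, with which it shares 1442, read 40, 38 and 30 in WT and 91, 102 and 103 in CSE-KO.

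**Figure D4:**
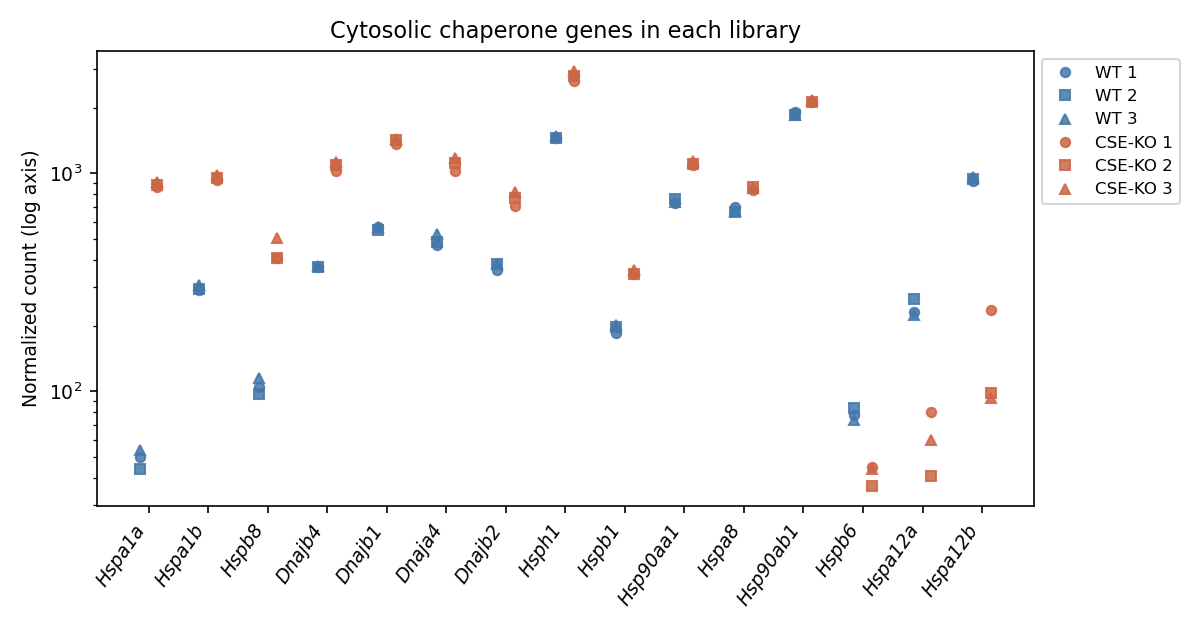
Normalized count (vertical log axis) of 15 cytosolic chaperone genes in each of the 6 libraries; blue marks are WT, orange marks are CSE-KO, and the shape gives the replicate number. Hspa1a climbs from 44 to 54 in WT to 861 to 910 in CSE-KO, whereas Hspa12b falls from 925 to 963 in WT to 93 to 237 in CSE-KO.

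Among the small heat shock proteins, Hspb8, the partner of the co-chaperone BAG3, read 105, 97 and 115 in WT and 409, 409 and 505 in CSE-KO. Each CSE-KO library lay far above WT (4.15-fold, log2 2.05, SE 0.09, adjusted p = 1.5e-08). Hspb1, the mouse HSP25, read 185, 198 and 201 in WT and 345, 345 and 359 in CSE-KO (1.80-fold, log2 0.84, SE 0.05, adjusted p = 1e-07). The mean of Hspb1 in CSE-KO equalled 63.3% of its distinct stretches, and the correction for shared starts, under the same unknown assumptions as for Hspa1a, gave 2.31-fold. Hspb2, a small heat shock protein of muscle, read 2, 4 and 4 in WT and 18, 26 and 41 in CSE-KO, and entered the test only through the latter. Of its exonic bases, 30.2% overlap Cryab (alpha-B-crystallin, also a small heat shock protein) on the opposite strand, which read 193, 193 and 182 in WT and 492, 506 and 532 in CSE-KO, so reads of the pair may be mixed if strand was not used. Hspb6, or HSP20, went the other way, from 78, 84 and 74 to 45, 37 and 44 (log2 −0.90, SE 0.13, adjusted p = 8.4e-05). Hspb11 read 84 to 93 in WT and 108 to 112 in CSE-KO (log2 0.30, adjusted p = 0.011, and 0.09 with WT counted as 1 sample). Despite its symbol it encodes a subunit of the intraflagellar transport machinery.

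Several small heat shock proteins are abundant in muscle. Muscle markers were mostly higher, as were Hspb1 and Hspb8, whereas Hspb6 was lower (log2 −0.90). Markers that entered the test only because 1 group was high had to differ. The sums include these markers and can rest on few genes, so they describe the lists and do not measure a cell type. Xirp2 of the striated muscle list, for example, read 0, 0 and 1 in WT and 93, 114 and 106 in CSE-KO. Krt19 of the mesothelial list read 188, 182 and 186 in WT and 524, 563 and 562 in CSE-KO. Counts of markers are set beside the 38.3% of all tested genes that were higher and the 39.0% that were lower. Of 9 tested smooth muscle and pericyte markers 7 were higher and 2 lower (1 of the 9 entered through 1 group), with sums of 977 to 1023 in WT and 1840 to 1993 in CSE-KO. The lower ones were Pdgfrb (78, 80 and 70 in WT, 36, 36 and 29 in CSE-KO) and Cspg4 (23, 24 and 22 in WT, 1, 3 and 2 in CSE-KO). Of the striated muscle markers, 3 were tested and higher, 2 of which entered only through CSE-KO, with sums of 31 to 43 against 157 to 200, while the defining genes Ryr2, Myh6, Myh7, Actc1, Myl2 and Ckm were absent from the table. Macrophage markers were higher in 9 of 11 tested and lower in 1, but 7 of the 11 entered only through CSE-KO, with sums of 1020 to 1062 against 1348 to 1513. Of these, Adgre1, Ptprc, Marco and Itgam were at 0 in every WT library. The lower one, Cd14, read 788, 775 and 775 in WT and 315, 216 and 187 in CSE-KO, and Mrc1 was not called. Cd14 thus made up most of the WT sum, and its fall offset rises such as that of Lyz2 (23, 33 and 37 against 408, 466 and 439). Mesothelial markers were higher in 4 of 5 tested, 3 of which entered only through CSE-KO, with sums of 198 to 212 against 648 to 736. Fibroblast markers were higher in 1 and lower in 1 of 5 tested (sums of 1168 to 1267 against 1128 to 1463), and of 8 lung epithelial markers 4 were absent from the table (sums of 88 to 101 against 22 to 46). Immediate early genes, which respond to the handling of cells, were higher in 3 and lower in 5 of 8, with sums of 6988 to 7261 against 6629 to 6824. Their part in the chaperone changes was not tested.

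The cytosolic J-domain proteins of the DNAJA and DNAJB classes, the general partners of HSP70, were higher in 9 of 9 genes, 7 of them by at least 1.5-fold, with a median log2 fold change of 0.69. Over all tested genes 38.3% were higher, and 17.4% by at least 1.5-fold. Dnajb4 read 372, 370 and 375 in WT and 1019, 1086 and 1126 in CSE-KO (2.89-fold, log2 1.53, SE 0.04, adjusted p = 1.7e-10). Dnajb1, the classical HSP40 that works with HSP70 and HSP110 on aggregates, read 565, 548 and 567 in WT and 1354, 1423 and 1428 in CSE-KO (2.50-fold, log2 1.32, SE 0.03, adjusted p = 1.1e-10). Both genes sat in a narrow range within each group, with a wide gap between the groups. Dnaja4 read 470, 483 and 526 in WT and 1020, 1111 and 1171 in CSE-KO (2.23-fold, log2 1.16, SE 0.06, adjusted p = 1.5e-07). Of its exonic bases, 44.1% overlap Wdr61 on the opposite strand, which was not called (adjusted p = 0.15). The other members of these classes are given so that every gene is accounted for, beyond the rule that chose the named genes. Dnajb2, a J-protein linked to the ubiquitin system, rose by 1.03 on the log2 scale, Dnajb5 by 0.69 and Dnaja1 by 0.63. Dnajb3, near the filter at 11 to 13 in WT and 16 to 19 in CSE-KO, rose by 0.60 (adjusted p = 0.04), a call lost without CSE-KO 2 or 3 or WT 2 or 3 (adjusted p = 0.085 to 0.10) and with WT counted as 1 sample (0.15). The smallest rises were those of Dnajb6 (0.32), which restrains aggregation of polyglutamine proteins, and Dnaja2 (0.26).

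The DNAJC genes, whose products mostly serve a single process, were mixed. In the cytosol and nucleus 4 of 8 were higher, 2 lower and 2 not called, with a median of 0.13. Over all tested genes 38.3% were higher and 39.0% lower. Dnajc17 and Dnajc21, which act in splicing and in ribosome assembly, rose by 0.60 and 0.58 on the log2 scale. The ribosome-bound Dnajc2, which pairs with Hspa14, rose by 0.45 (477, 472 and 469 in WT, 618, 647 and 667 in CSE-KO). The partners of that ribosomal complex thus moved in opposite directions. Dnajc7, which links HSP70 and HSP90, rose by 0.25. Dnajc9, a chaperone for histones, fell from 287, 284 and 276 to 226, 216 and 215 (log2 −0.37, SE 0.05, adjusted p = 6.7e-05). Dnajc12 read 24, 27 and 28 in WT and 17, 11 and 16 in CSE-KO (log2 −0.84, SE 0.24, adjusted p = 0.0067), a call lost with WT counted as 1 sample (adjusted p = 0.081). Dnajc8 and Dnajc24 overlapped between groups and were not called (log2 0.02 for each, with SE 0.04 and 0.11). With totals set equal or upper-quartile scaling Dnajc8 was called higher, at 0.09 and 0.11, and without WT 2, CSE-KO 1 or CSE-KO 2 the sign of Dnajc24 turned (−0.07, −0.01 and −0.006).

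In the ER, the HSP70, the HSP90 and 3 of the J-proteins rose, while 5 other J-proteins and an HSP70-like gene fell. Hspa5, the ER HSP70 also called BiP, read 1659, 1602 and 1641 in WT and 2149, 2236 and 2206 in CSE-KO, a non-overlapping rise of 1.34-fold (log2 0.43, SE 0.02, adjusted p = 3e-08). Dnajb9 (ERdj4), a J-protein that binds BiP and the stress sensor IRE1, read 305, 297 and 295 in WT and 510, 550 and 545 in CSE-KO (1.79-fold, log2 0.84, SE 0.04, adjusted p = 2.1e-08). It was the single ER gene past 1.5-fold in either direction. Hsp90b1, the ER HSP90 or GRP94, rose by 0.14 (1614, 1587 and 1602 in WT, 1742, 1784 and 1781 in CSE-KO, SE 0.02, adjusted p = 8.5e-05). Dnajb11 (ERdj3) rose by 0.15, and Dnajb14, a J-protein of the ER membrane that faces the cytosol, by 0.37. Against a fold of 1.2, Hspa5 and Dnajb9 remained the 2 ER genes called higher.

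Among the ER genes that fell, Dnajc10 (ERdj5), which reduces disulfides in misfolded proteins, read 1467, 1452 and 1481 in WT and 1124, 1119 and 1105 in CSE-KO (log2 −0.39, SE 0.02, adjusted p = 4.4e-08). Dnajc16 read 658, 638 and 628 in WT and 435, 444 and 436 in CSE-KO (log2 −0.55, SE 0.04, adjusted p = 8.8e-08). Dnajc14 read 836, 905 and 866 in WT and 678, 633 and 644 in CSE-KO (log2 −0.42, SE 0.04, adjusted p = 1.8e-06). In each of these 3 the groups were well separated. The membrane genes Dnajc18 and Dnajb12 fell by 0.25 and 0.21 on the log2 scale. Hspa13, an HSP70-like protein of microsomes, read 731, 717 and 716 in WT and 665, 696 and 688 in CSE-KO. Its log2 fold change was −0.08 (SE 0.03, adjusted p = 0.036), and the call was lost when any of 5 of the 6 libraries was left out, all but CSE-KO 2, with adjusted p of 0.054 to 0.10. With WT counted as 1 sample its adjusted p was 0.2, and with upper-quartile scaling its log2 fold change was 0.01 (adjusted p = 0.7). Dnajc3 (P58IPK), whose promoter holds the ER stress element shown above, read 1305, 1266 and 1306 in WT and 1266, 1291 and 1306 in CSE-KO. The groups overlapped, and no change was called (log2 −0.005, SE 0.03, adjusted p = 0.86). With totals set equal or upper-quartile scaling Dnajc3 was called higher by little (0.07 and 0.09, adjusted p = 0.023 and 0.0072). Dnajc1 was not called either (log2 −0.07, SE 0.04), except lower without CSE-KO 3 (−0.12, adjusted p = 0.008).

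In the mitochondrion, the HSP70 and the chaperonin rose. Hspa9, the HSP70 of the matrix also called mortalin, read 1438, 1454 and 1411 in WT and 2168, 2191 and 2173 in CSE-KO. The libraries of each group were close to each other and the groups far apart (1.52-fold, log2 0.60, SE 0.02, adjusted p = 1.5e-09). Hspe1, or HSP10, the lid of the chaperonin, read 140, 137 and 156 in WT and 256, 273 and 287 in CSE-KO (1.88-fold, log2 0.91, SE 0.07, adjusted p = 5.7e-07). Hspd1, or HSP60, its barrel, read 712, 706 and 696 in WT and 843, 846 and 859 in CSE-KO (1.21-fold, log2 0.27, SE 0.03, adjusted p = 4.4e-06). The lid and the barrel lie head to head on chromosome 1, Hspd1 at 55077835 to 55088243 and Hspe1 at 55088132 to 55091307, around the shared heat shock element printed above, and they rose by unequal amounts. Of the stretches of Hspd1, 70.4% were distinct.

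The mitochondrial J-proteins were uneven. Dnajc11, found with the complex that shapes the inner membrane, read 615, 611 and 670 in WT and 877, 893 and 890 in CSE-KO (log2 0.49, SE 0.04, adjusted p = 4.3e-07). Dnaja3 (Tid1), the J-partner of Hspa9, read 479, 504 and 507 in WT and 521, 565 and 520 in CSE-KO. Its rise was small (log2 0.11, SE 0.04, adjusted p = 0.041), and the call was lost without CSE-KO 2 (adjusted p = 0.18), without any 1 of the WT libraries (adjusted p = 0.053 to 0.15), and with WT counted as 1 sample (0.19). Dnajc19, which drives Hspa9 at the import channel, read 110, 124 and 107 in WT and 82, 79 and 50 in CSE-KO, lower in every CSE-KO library and lowest in CSE-KO 3 (log2 −0.72, SE 0.18, adjusted p = 0.0044). With WT counted as 1 sample its adjusted p was 0.076. Dnajc15, Dnajc28 and Dnajc30 overlapped between groups and were not called, at −0.10, 0.28 and 0.08 on the log2 scale with SE of 0.08, 0.16 and 0.07. With upper-quartile scaling Dnajc28 and Dnajc30 were called higher, at 0.37 and 0.17.

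The genes under other places changed little. Dnajc5, the cysteine string protein of secretory vesicles, rose from 1346, 1333 and 1329 to 1574, 1552 and 1541 (log2 0.22, SE 0.02, adjusted p = 3.3e-06). Dnajc13, which works on endosomes, fell from 1935, 1963 and 1966 to 1755, 1792 and 1761 (log2 −0.14, SE 0.02, adjusted p = 6.2e-05). Both pairs of groups were apart, yet neither gene was called against a fold of 1.2. Dnajc4 read 106, 120 and 114 in WT and 138, 124 and 138 in CSE-KO (log2 0.23, SE 0.09, adjusted p = 0.032). That call was lost with WT counted as 1 sample (0.16) and without WT 1, WT 3, CSE-KO 1 or CSE-KO 3 (0.065 to 0.11). Dnajc25 fell by 0.28 on the log2 scale (adjusted p = 0.0013), and Dnajc27 overlapped between groups and was not called (log2 −0.22, adjusted p = 0.083), except lower without CSE-KO 2 (−0.31, adjusted p = 0.022).

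Counts by family are set beside the 38.3% of all tested genes that were higher and the 39.0% that were lower. The HSP70 genes were 7 higher and 4 lower of 11 (6 and 4 of 10 without Hspa1l). The DNAJA genes were 4 higher of 4, and the DNAJB genes 9 higher and 1 lower of 10. Of the 24 tested DNAJC genes, 7 (29.2%) were higher and 9 (37.5%) lower, so neither share exceeded that over all genes. The 3 HSP90 genes and both chaperonin genes were higher, with 2 of 3 HSP110 genes. Of the 5 tested genes with Hspb symbols 4 were higher (3 of 4 without Hspb2). These were counted by symbol, so Hspb11 is among those higher. Among the 38 genes called higher, the lowest value of the CSE-KO group was that of CSE-KO 1 in 28, and among the 15 called lower it was the highest in 11. The same held for 54.6% of all genes called higher and 61.5% of all called lower, so the smaller shift of CSE-KO 1 was seen across the table. Without CSE-KO 1, 37 chaperone genes were higher and 14 lower, beside 5231 and 5405 of all 13750 tested genes. With WT counted as 1 sample, and with CSE-KO 2 and 3 counted as 1 sample too, fewer genes were called, both among the chaperone genes and over all tested genes.

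The partners of these chaperones were counted from lists chosen for their roles. Of the heat shock factors and their binding protein, 3 of 4 tested were higher (median log2 fold change 0.17). Hsf1 read 446, 440 and 471 in WT and 469, 543 and 537 in CSE-KO, so WT 3 lay just above CSE-KO 1 (log2 0.19, SE 0.06, adjusted p = 0.011, and 0.11 with WT counted as 1 sample). Hsf4 rose from 10, 13 and 13 to 38, 51 and 49 (log2 1.89, SE 0.21, adjusted p = 9.3e-06). The call of Hsf4 alone remained against a fold of 1.2.

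Of the cytosolic co-chaperones of HSP70 and HSP90, 16 of 28 tested were higher and 6 lower, with a median of 0.11. Bag2 and Hspbap1 had the largest rises, at 0.71 and 1.13 on the log2 scale. Bag3, the exchange factor that pairs with Hspb8, was also higher (975, 930 and 947 in WT, 1409, 1476 and 1527 in CSE-KO, log2 0.63), named after its values were seen because of that pairing. The largest falls were those of the myosin chaperone Unc45b (253, 248 and 286 in WT, 62, 21 and 32 in CSE-KO, log2 −2.90) and the steroid-responsive Fkbp5 (1455, 1438 and 1464 in WT, 743, 623 and 598 in CSE-KO, log2 −1.16). Of the cytosolic chaperonin TRiC and its feeder prefoldin, 12 of 14 tested were higher, with a median of 0.25. Most of these rises were small: Pfdn2 and Pfdn4 had the largest, at 0.45 each, only 2 genes remained against a fold of 1.2, and Cct8 was the single one lower, at −0.10, a call lost with WT counted as 1 sample (adjusted p = 0.098) and with totals set equal (0.51).

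Of the mitochondrial partners and proteases, 12 of 15 were higher and 1 lower, with a median of 0.34. Grpel2, an exchange factor for Hspa9, rose from 181, 158 and 145 to 305, 358 and 339 (log2 1.05, SE 0.09, adjusted p = 1.1e-06), and the disaggregase Clpb rose by 0.73. Trap1, the mitochondrial HSP90, was lower by little (log2 −0.15, SE 0.03, adjusted p = 0.0015), and was not called with totals set equal (−0.07) or upper-quartile scaling (−0.05). Of the ER partners, 5 of 16 were higher, 4 lower and 7 not called, with a median of −0.02. Creld2 and Manf, both secreted targets of ER stress, rose by 0.59 and 0.37, while Fkbp2 and Sil1, the exchange factor of Hspa5, were lower at −0.46 and −0.19. The call of Sil1 was lost without CSE-KO 2 or WT 1 (adjusted p = 0.063 and 0.066) and with WT counted as 1 sample (0.096). Among small heat shock and J-domain proteins with other symbols, 3 of 5 were higher, led by Cryab (log2 1.43, SE 0.05, adjusted p = 1.6e-09). These lists were read as counts only, beside the 38.3% of all tested genes that were higher and the 39.0% that were lower.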

How the data were processed

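Bulk RNA-seq of 6 mouse lung endothelial libraries, 3 WT and 3 CSE-KO, was compared. Per the submitters' processing notes, the tools included DESeq2 1.26.0, featureCounts 1.6.5, STAR 2.7.3a, Trimmomatic 0.39 and Picard 2.21.7, with build mm10 and no stated order. Per the labels' protocols, stranded mRNA libraries were read as single ends of 75 bases. The authors deposited 1 table of whole numbers, treated as a score: they look like normalized counts rounded to whole numbers, which no header states, so raw depth is unknown and no count model was used. The smallest row maximum was 3. If duplicates were removed, values of abundant short genes are understated.

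Values were tested with limma 3.58.1 in R 4.3.3 on log2(value + 0.5), with mean trend and robust variances, over genes reaching 10 in at least 3 libraries. Tests were two-sided with Benjamini-Hochberg adjustment over 13750 genes, called at 0.05. A fold change is on the log2(value + 0.5) scale and understates changes of low genes. The design allowed for a count test had the table held raw counts. Exonic lengths and overlaps come from GENCODE M21 and promoters from RefSeq, both GRCm38. Scripts were tested on simulated data. The 64 genes, their compartments and all lists were chosen with earlier results of these data known. Named were all tested genes with Hsp symbols, up to 3 of the largest called rises and falls of Dnaj genes per compartment, the untested genes, the 2 largest called changes each way of every partner list (1 gene is not reported here), and Cth. Alternatives were scalings, filters, pseudocounts, limma without trend and robust options, a replicate block, left-out libraries, libraries merged as 1 sample, a test against a fold of 1.2 and, chosen after seeing the data, a correction for shared starts and counts without genes under 10 in every library of 1 group.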

Additional observations from a re-analysis of the deposited data

How the results depend on the processing

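The total counts of chaperone genes (38 higher and 15 lower) held within 1.5 times under every scaling, filter and pseudocount, without trend and robust options, and with WT libraries merged. Against a fold of 1.2 they dropped to 24 higher and 8 lower, with 2 and 3 in the ER, 3 higher in the mitochondrion, and 0 and 0 in other places. Over all 13750 tested genes, 3182 were higher and 3529 lower against that fold. In that setting the partner lists had 8 higher and 2 lower cytosolic co-chaperones, 2 and 0 TRiC and prefoldin genes, 5 and 0 mitochondrial partners, 2 and 1 ER partners, and 1 heat shock factor. That test asks for larger changes, so fewer calls follow from its construction. For the other shifts below, the cause was not tested.

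With WT counted as 1 sample, which is assumed to vary like CSE-KO, 0 mitochondrial genes were lower, 1 gene of other places and 1 heat shock factor were higher, and 0 TRiC genes and 1 ER partner were lower. Merging CSE-KO 2 and 3 too gave 1 higher and 1 lower gene of other places, 1 higher heat shock factor, 0 lower TRiC genes, 0 lower mitochondrial partners and 1 lower ER partner. With equal totals and with upper-quartile scaling, 0 TRiC genes and 0 mitochondrial partners were lower, 8 ER partners were higher and 1 lower, and 5 genes with other symbols were higher. The whole table moved upward too under these scalings. Of 13663 tested genes, 6006 were higher and 4735 lower with equal totals, and 6182 and 4599 with upper-quartile scaling. In the main fit 5270 and 5369 of 13750 were. Without trend and robust options 0 TRiC genes were lower.

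The cytosolic median was 0.52 with equal totals, 0.54 with upper-quartile scaling and 0.34 at a minimum value of 50 or without the genes that passed the filter through 1 group alone, an alternative chosen after seeing the data. The ER median turned to 0.005 and 0.024 under those scalings, and the mitochondrial median was 0.36 with upper-quartile scaling. The median of other places was −0.07 with equal totals, −0.051 with upper-quartile scaling and 0.038 without a filter. Leaving out 1 library at a time gave mitochondrial medians of 0.11 to 0.28, and 1 to 2 higher genes of other places.

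Reversals among single genes were all of small values. With equal totals and upper-quartile scaling Hspa4l was 0.067 and 0.086, Dnajc3 0.069 and 0.087, and Dnajc1 0.005 and 0.024, and with upper-quartile scaling Hspa13 was 0.014. With 1 library left out at a time, Hspa4l ranged from −0.05 to 0.019, Dnajc3 from −0.02 to 0.007 and Dnajc24 from −0.071 to 0.095. Over all genes shown and all settings, 1524 values kept direction and call, 86 lost the call and 7 gained it. Same-numbered libraries did not deviate together (r = −0.001, 0.02 and 0.01 for the 3 numbers). The WT libraries differed too little from each other for this to show whether the numbers pair the samples. With a replicate block 36 chaperone genes were higher and 14 lower, with 1 higher gene in other places, beside 5171 higher and 5269 lower of all 13750 tested genes. Raw depth is unknown, so counting limits could not be set.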

Other observations

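Processed copies of several chaperone genes, which are not protein-coding and so lay outside the gene set, were higher in the libraries labelled CSE-KO. Hsp25-ps1, a copy of Hspb1, read 9, 5 and 10 in WT and 60, 61 and 68 in CSE-KO. Hspa9-ps1 read 7, 8 and 9 in WT and 34, 37 and 23 in CSE-KO. Hspd1-ps3 read 42, 51 and 39 in WT and 61, 74 and 70 in CSE-KO, and Gm15459, which shares stretches with Hspa8, read 27, 35 and 31 in WT and 48, 52 and 52 in CSE-KO. Gm15542, which shares stretches with Dnaja1, read 17, 18 and 14 in WT and 26, 32 and 31 in CSE-KO. Whether these reads arose at the copies or at the parent genes was not tested. Dnajc19-ps stayed at 5 or under in every library.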
